A study of Mus musculus with 12 samples.

Results

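Lpl, Cd36, Fabp4, Mogat1, Cidea, Cidec and Pparg encode proteins that bring fatty acids into a cell, store them as triglyceride, or switch on the genes that do so. These 7 of the 19012 gene symbols in the data were chosen by name, with their levels in these libraries already known. The levels and differences given for them are therefore descriptions. No p-value is printed for them, and nothing is read from a count of how many passed a threshold. Each was read from its transcript with the longest exon length, and each has 1 transcript row in the data.

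A total of 3 groups of 4 mouse libraries were compared: wild-type livers (genotype wt), livers of E2F7/8 DKO mice, and liver tumors of E2F7/8 DKO mice. DKO stands for double knockout of E2f7 and E2f8, whose products are repressing members of the E2F family of transcription factors. Both DKO groups carry the same genotype label, so by the labels the tumors differ from the DKO livers in tissue and not in genotype. Codes in the data columns show that a DKO liver and a tumor with 1 replicate number are of 1 animal, which means that every DKO liver came from a tumor-bearing mouse, whereas the wild-type livers came from other mice. The labels give no age, sex or strain, and do not say how or in which cells the genes were deleted. Each library is RNA of a whole piece of tissue, in which fewer cells of a type and less RNA per cell cannot be told apart.

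Lipoprotein lipase sits on the inner wall of blood capillaries and cuts triglyceride in circulating lipoproteins into fatty acids, which CD36 helps to carry across the cell membrane and FABP4 carries within the cell. MOGAT1 is an acyltransferase that makes diglyceride on the way to triglyceride, and the CIDE proteins on the lipid droplet help small droplets fuse into large ones. PPAR-gamma, the product of Pparg, is a nuclear receptor that pairs with RXR on DNA and is the main regulator of this set in fat cells. Normal adult liver makes little of Lpl, Fabp4, Cidea and Pparg, and several genes of the set are known to be raised in fatty liver.

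Sequences upstream of the start are shown for 3 of these genes that behaved differently: Cd36, which was higher in each tumor than in each wild-type liver, Pparg, which was high in a few libraries, and Cidec, which did not separate the groups. They come from RefSeq on build GRCm38.p6, which held an entry for 4 of the 7 genes (Mogat1, Cd36, Cidec and Pparg). Each is the 250 bases before the start, 5′ to 3′ on the strand of the gene, with capitals for a match to AGGTCA on either strand. AGGTCA is the half-site that nuclear receptors such as PPAR-gamma and RXR bind.
Cd36 (chr5:17835897-17836146, minus strand): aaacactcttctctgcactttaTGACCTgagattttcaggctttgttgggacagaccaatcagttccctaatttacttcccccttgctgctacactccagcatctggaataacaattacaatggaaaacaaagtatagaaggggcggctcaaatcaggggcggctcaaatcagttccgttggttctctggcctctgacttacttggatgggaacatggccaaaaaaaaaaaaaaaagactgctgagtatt
Cidec (chr6:113435761-113436010, minus strand): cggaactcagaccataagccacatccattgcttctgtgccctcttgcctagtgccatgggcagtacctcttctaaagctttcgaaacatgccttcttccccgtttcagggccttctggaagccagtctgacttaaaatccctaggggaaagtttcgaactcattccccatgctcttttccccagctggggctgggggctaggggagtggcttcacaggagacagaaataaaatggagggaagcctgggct
Pparg (chr6:115421816-115422065, plus strand): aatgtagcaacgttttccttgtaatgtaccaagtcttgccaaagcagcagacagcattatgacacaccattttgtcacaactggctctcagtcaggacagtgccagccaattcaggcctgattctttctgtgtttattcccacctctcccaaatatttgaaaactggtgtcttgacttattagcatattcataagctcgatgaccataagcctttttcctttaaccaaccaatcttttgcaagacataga

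The Cd36 window holds 1 half-site, on the opposite strand, from 228 to 223 bases before the start. The Cidec window and the Pparg window hold none. The Pparg window lies right before the start of the transcript that was measured, and the Cidec and Cd36 windows end 4 and 200 bases from theirs. A further 2 Pparg starts upstream each have an AGGTCA, from 28 to 23 and from 9 to 4 bases before the start, but the data hold no separate value for transcripts from them. Among all 32851 promoter windows of this length, 14.0% hold AGGTCA. The full repeat AGGTCANAGGTCA, which contains that half-site in each arm, was in 0.0335% of windows and in none of the entries for these genes. The E2F words TTTCCCGC, TTTCGCGC, TTTGCCGC and TTTGGCGC, searched on both strands, were in 1.86% of windows and in none of those entries. A match is a description of letters, and no match says only that these letters are not in this window.

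Levels are RPKM, the reads of a transcript divided by its kilobases of exon and by the library's M reads (M, mega), a scale that is per length and so can be compared between genes. Libraries had 7.985 to 15.956 M reads. E2f7 was at 0.103 to 0.2 RPKM in wild-type livers, at 0.211 to 0.4 in livers of DKO mice and at 0.0365 to 0.259 in tumors. E2f8 averaged 2.7 ± 1.13 RPKM in wild-type livers, 9.75 ± 7.7 in the livers of DKO mice and 5.7 ± 4.6 in DKO tumors (SD, n = 4 each). Neither mean was lower in the groups labelled DKO, and each DKO liver was above each wild-type liver for E2f7. Which exons were removed is not stated, so these levels do not check the genotype, and the groups are named as they are labelled. The 8 hepatocyte markers summed to 51679 to 76083 RPKM in wild-type livers, 45159 to 117284 in the livers of DKO mice and 73524 to 132569 in DKO tumors, so all libraries hold liver RNA. Most of that sum is Alb, at a mean of 46019, 53335 and 80945 RPKM in the same order. Of the 8 markers, 4 were higher in tumors than in wild-type livers on the log2(RPKM + 1) scale and the others were lower. A tag in the column names, L02 or L03, is L02 for the DKO livers and for wild-type livers 1 and 2, and L03 for the tumors and for wild-type livers 3 and 4. What the tag stands for is not stated, and between DKO tumor and DKO liver it cannot be told apart from the tissue.

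Lpl (build mm9, chromosome 8, 71404453 to 71430830, plus strand) was at 5.63, 6.75, 12.6 and 8.90 RPKM in wild-type livers 1 to 4. In DKO livers 1 to 4 it was at 20.9, 25.9, 34.0 and 15.9 RPKM. In DKO tumors 1 to 4 it was at 82.8, 102, 40.1 and 79.7 RPKM. The groups formed 3 steps with no overlap at all: the lowest DKO liver was above the highest wild-type liver, and the lowest tumor, number 3, was above the highest DKO liver, also number 3. Means were 8.47 ± 3.07, 24.2 ± 7.71 and 76.1 ± 25.8 RPKM (SD, n = 4 each), so the mean of the tumors was 8.98 times that of wild-type livers and the mean of DKO livers 2.86 times. On the log2(RPKM + 1) scale, on which all differences below are given, the difference from wild-type liver was 3.0 for tumors and 1.41 for DKO livers (SE 0.31 each).

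Lpl also moved up in rank among all genes. It stood at the 76.5th percentile of mean RPKM in wild-type livers, at the 89.0th in the livers of DKO mice and at the 96.6th in DKO tumors, where 647 genes were higher, against 4465 in wild-type livers. Within each animal the tumor was above the liver. The ratio of tumor to liver RPKM for Lpl was 3.96, 3.92, 1.18 and 5.0 in animals 1 to 4, and the small ratio of animal 3 came from both a high liver and a low tumor.

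**Figure D1:**
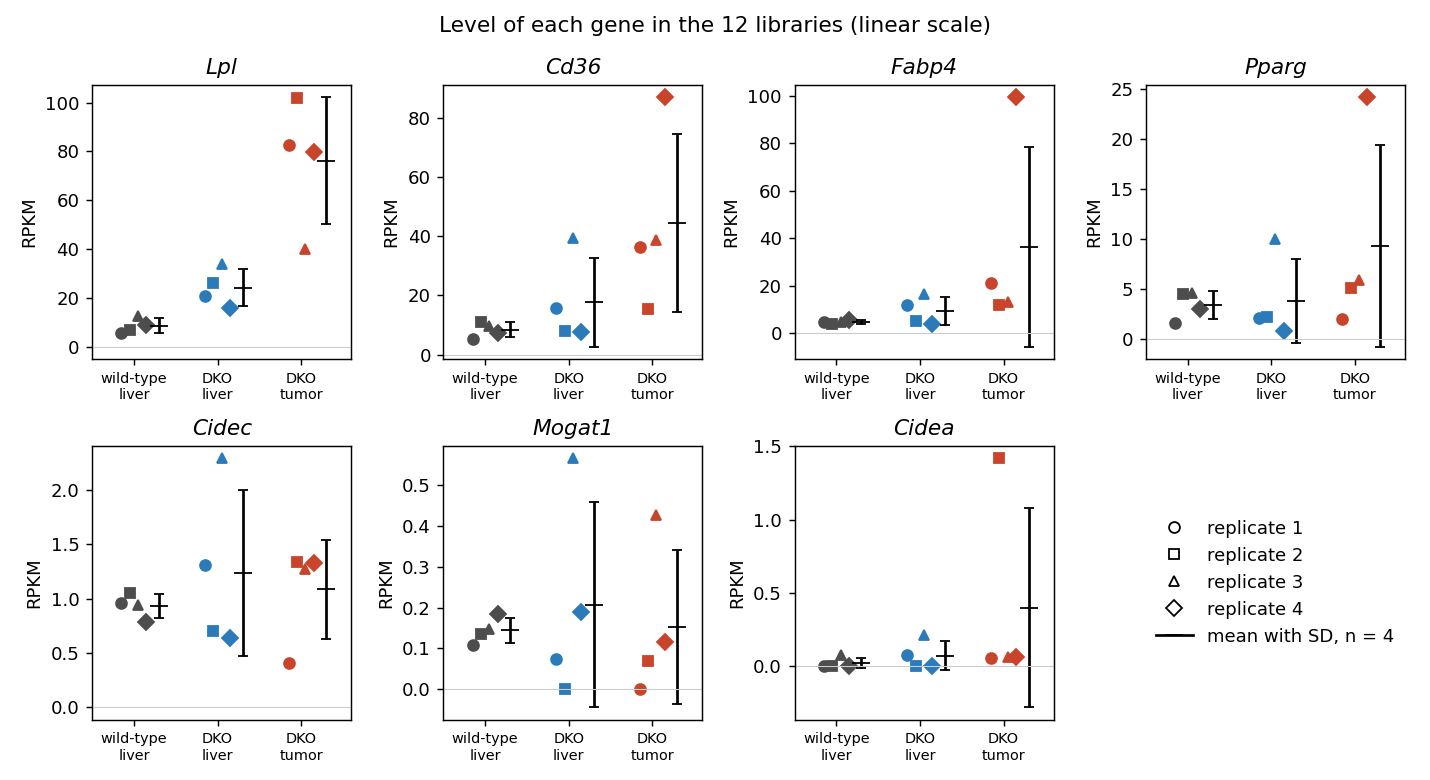
RPKM of each of the 7 genes (linear vertical axis, own range per panel) in the 12 libraries, by group, with the replicate number as the symbol and a bar for the mean with its SD (n = 4). Lpl forms 3 separate levels, Cd36, Fabp4 and Pparg have their highest value in DKO tumor 4 (86.9, 99.3 and 24.2 RPKM), and Cidea stands at 1.42 RPKM in DKO tumor 2.

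The differences of Lpl from wild-type liver were also seen within a tag. The step from DKO liver to tumor cannot be read within a tag, since no tag holds both groups. Among libraries tagged L03, tumors exceeded wild-type livers 3 and 4 by 2.66, and among those tagged L02, DKO livers exceeded wild-type livers 1 and 2 by 1.76. With the tag as a covariate over all 12 libraries, the difference of tumor from DKO liver was 0.89, against 1.59 without it. That adjusted value rests on wild-type livers alone to separate tag from tissue.

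Cd36, the membrane receptor that takes up long-chain fatty acids and oxidized lipoproteins (chromosome 5, 17287833 to 17341513, minus strand), was at 5.40, 11.1, 9.73 and 7.45 RPKM in wild-type livers 1 to 4. In DKO livers it was at 15.7, 7.93, 39.4 and 7.72 RPKM. In DKO tumors it was at 36.5, 15.5, 38.9 and 86.9 RPKM. Tumors and wild-type livers did not overlap, while DKO livers 2 and 4 lay within the wild-type range and DKO liver 3 lay above the tumors 1, 2 and 3. Means were 8.43 ± 2.53, 17.7 ± 14.9 and 44.5 ± 30.2 RPKM (SD, n = 4 each). The difference from wild-type liver was 2.07 for tumors and 0.72 for DKO livers (SE 0.53 each). Within tag L03 the former was 2.01, and within tag L02 the latter was 0.78.

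The size of the Cd36 differences moved with single libraries. Without DKO tumor 4 the tumor difference was 1.67, and without DKO liver 3 the DKO liver difference was 0.25. In animals 1, 2 and 4 the tumor was above the liver, by 2.33, 1.96 and 11.3 times. In animal 3 the ratio for Cd36 was 0.987, so liver and tumor were level.

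Fabp4 (chromosome 3, 10204342 to 10208575, minus strand), a fatty acid binding protein of fat cells, macrophages and endothelium, was at 4.69, 3.78, 4.72 and 5.70 RPKM in wild-type livers 1 to 4. In DKO livers it was at 11.9, 4.98, 16.5 and 3.87 RPKM. In DKO tumors it was at 21.1, 12, 13.3 and 99.3 RPKM. Again each tumor was above each wild-type liver, and again DKO livers 1 and 3 were the high ones of their group. Means were 4.72 ± 0.786, 9.29 ± 5.94 and 36.4 ± 42.1 RPKM (SD, n = 4 each), and the SD of the tumors exceeds their mean because of tumor 4. The difference of tumor from wild-type liver was 2.16 (SE 0.58) with all libraries and 1.5 without DKO tumor 4. For DKO liver it was 0.66, and 0.34 without DKO liver 3. Within tag L03 the difference of tumors was 2.03, and within tag L02 that of DKO livers was 0.79.

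The ratio of tumor to liver RPKM for Fabp4 was 1.78, 2.42, 0.809 and 25.7 in animals 1 to 4. Animal 4 therefore held both the lowest liver and the highest tumor of the DKO groups for this gene. The same was true of Cd36 and Pparg in animal 4. For Lpl, animal 4 had the lowest of the DKO livers but tumor 2, not tumor 4, was the highest.

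**Figure D2:**
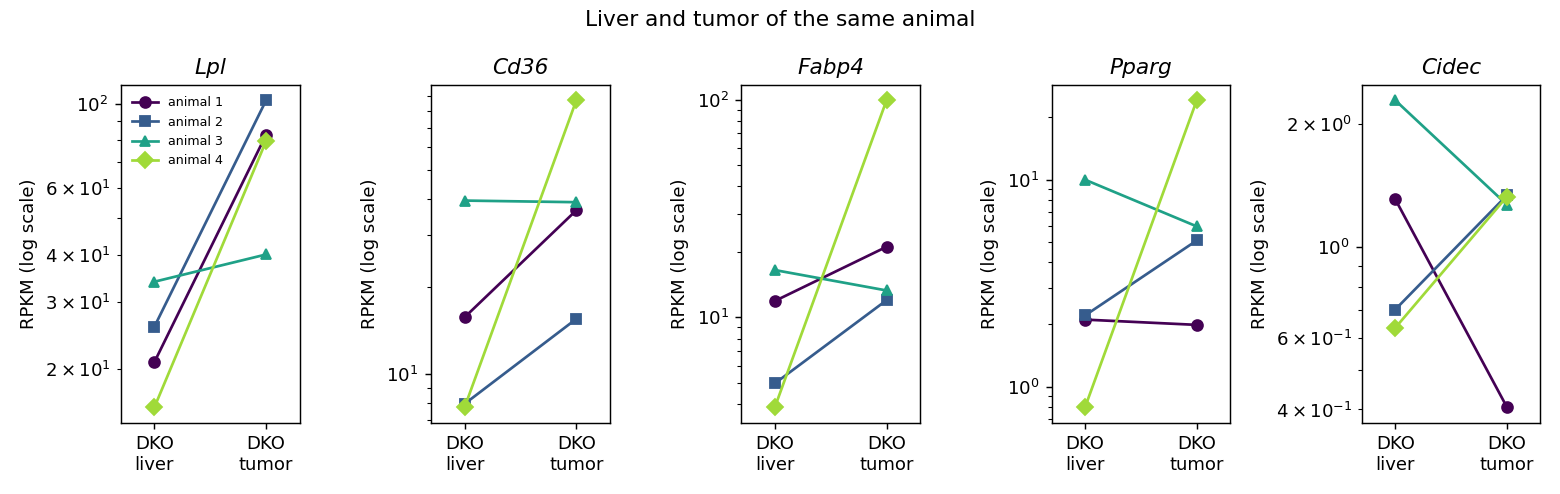
RPKM (log vertical axis, own range per panel) of the 5 tested genes in liver and tumor of each DKO animal, joined by a line per animal. All 4 lines go up for Lpl, 3 of 4 for Cd36 and Fabp4 and 2 of 4 for Pparg and Cidec, and the line of animal 4 is the steepest rise in each of the 5 panels.

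Mogat1, the acyltransferase (chromosome 1, 78508465 to 78534737, plus strand), was close to the limit of detection. Wild-type livers had 1, 2, 2 and 3 reads of it, DKO livers 1, 0, 8 and 2, and tumors 0, 1, 7 and 2. Mean levels were 0.144 ± 0.031, 0.207 ± 0.252 and 0.153 ± 0.189 RPKM (SD, n = 4 each), and both libraries with more than 3 reads, DKO liver 3 and DKO tumor 3, were of animal 3. A count of 0 allows up to 0.261 RPKM in DKO liver 2 and 0.164 in DKO tumor 1, counting error only. No difference between groups was detectable at this depth, and the gene did not pass the filter of 0.5 RPKM in at least 4 libraries.

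Cidea (chromosome 18, 67503217 to 67527447, plus strand), the CIDE protein of brown fat that is known to appear in fatty liver, was also below the filter. It had 0, 0, 1 and 0 reads in wild-type livers and 1, 0, 3 and 0 in DKO livers. In DKO tumors it had 1, 21, 1 and 1 reads, so tumor 2 alone, at 1.42 RPKM, was above the few-read level of every other library. A count of 0 allows 0.181 to 0.323 RPKM in the wild-type livers concerned, and tumors 1, 3 and 4 were below that range at 0.0538 to 0.0601 RPKM. No fold is given, since every library but tumor 2 is at or under 3 reads.

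Cidec (chromosome 6, 113374629 to 113385748, minus strand), whose product FSP27 enlarges lipid droplets, was at 0.96, 1.05, 0.94 and 0.784 RPKM in wild-type livers 1 to 4. In DKO livers it was at 1.31, 0.703, 2.29 and 0.634 RPKM. In DKO tumors it was at 0.405, 1.34, 1.27 and 1.33 RPKM. The groups overlapped throughout, with DKO liver 3 as the highest library and DKO tumor 1 as the lowest. Means were 0.934 ± 0.112, 1.23 ± 0.766 and 1.09 ± 0.456 RPKM (SD, n = 4 each), on 74, 97 and 105 reads per group. The difference from wild-type liver was 0.08 for tumors and 0.15 for DKO livers (SE 0.23 each), and the latter was −0.05 without DKO liver 3. Within a tag they were 0.14 and 0.10. Cidec differed less between groups than among libraries of the DKO groups, and its rank hardly moved, from the 48.1st percentile in wild-type livers to the 48.3rd in DKO livers and the 48.1st in tumors.

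Pparg (chromosome 6, 115372090 to 115440418, plus strand), the nuclear receptor, was at 1.63, 4.52, 4.58 and 2.99 RPKM in wild-type livers 1 to 4. In DKO livers it was at 2.11, 2.21, 10 and 0.796 RPKM. In DKO tumors it was at 1.99, 5.09, 5.95 and 24.2 RPKM. All groups overlapped: DKO liver 3 and DKO tumor 4 were high, DKO liver 4 was the lowest library, and the other 9 lay between 1.63 and 5.95 RPKM. Means were 3.43 ± 1.41, 3.79 ± 4.22 and 9.31 ± 10.1 RPKM (SD, n = 4 each). The difference of tumor from wild-type liver was 0.83 (SE 0.63) and became 0.24 without DKO tumor 4. For DKO liver it was −0.18, and −0.70 without DKO liver 3. Within a tag these differences were 0.67 for tumors and −0.02 for DKO livers. In animals 1 to 4 the ratio of tumor to liver for Pparg was 0.943, 2.31, 0.593 and 30.4, so the animals went both ways.

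By mean level the order in wild-type livers was Lpl, Cd36, Fabp4, Pparg, Cidec, Mogat1 and Cidea. Lpl and Cd36 did not differ there beyond their spread, at 8.47 and 8.43 RPKM, and the ranges of Fabp4 and Pparg overlapped. The order was the same in DKO livers. In DKO tumors Cidea stood above Mogat1 through tumor 2, and there the ranges of Lpl and Cd36, of Cd36 and Fabp4, and of Fabp4 and Pparg each overlapped. The spread within a group was widest for Pparg among the 5 tested genes. Its highest library was 12.2 times its lowest in the tumors and 12.6 times in the DKO livers, against 2.53 and 2.14 times for Lpl.

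Of the 5 genes that passed the filter, limma's adjusted p was under 0.05 in the comparison of tumors with wild-type livers for Lpl alone. Among all 11352 tested genes, 1.9% passed in that comparison (1.23% higher in tumors). Tumors did not overlap wild-type livers, on the higher side, for Lpl, Cd36 and Fabp4, as was the case for 5.57% of all tested genes. The share of all genes without overlap on the lower side is not given here, so such cases below have no share beside them. In DKO livers against wild-type livers none of the 5 passed and 0.0% of all genes did, while 12.4% of all genes had an unadjusted p under 0.05. Only Lpl was without overlap there, as were 5.62% of all genes. In tumors against DKO livers none passed, with 0.00881% of all genes, and Lpl was again alone without overlap, with 2.12% of all genes. When libraries were rescaled by median of ratios or by quantiles, Cd36 and Fabp4 passed as well in tumors against wild-type livers, where 5.27% and 4.34% of all genes then did. These comparisons share libraries, and the genes were chosen with their differences in view, so nothing is read from these counts.

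The members' profiles over the 12 libraries were set side by side as a description. The 8 DKO libraries come from 4 animals, and all r values below are of log2(RPKM + 1). Cd36 and Fabp4 ran closely together, with Pearson r = 0.92 and Spearman rho = 0.80, r = 0.87 without the 2 libraries farthest from the median of Cd36, and r = 0.82 for deviations from the group means. Cd36 and Pparg had r = 0.76 and rho = 0.69, and r = 0.80 for deviations from the group means. Without the 2 farthest libraries r fell to 0.40, so that relation rests on them in part. Pparg had r = 0.74 with Fabp4, 0.66 with Cidec and 0.45 with Lpl. For deviations from the group means these were 0.74, 0.77 and 0.39. Lpl ran with Cd36 (r = 0.75, rho = 0.73) and Fabp4 (r = 0.76, rho = 0.82) across groups. For deviations from group means Lpl had 0.21 with Cd36 and 0.32 with Fabp4, so Lpl shared with them the order of the groups more than the order of libraries within a group.

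**Figure D3:**
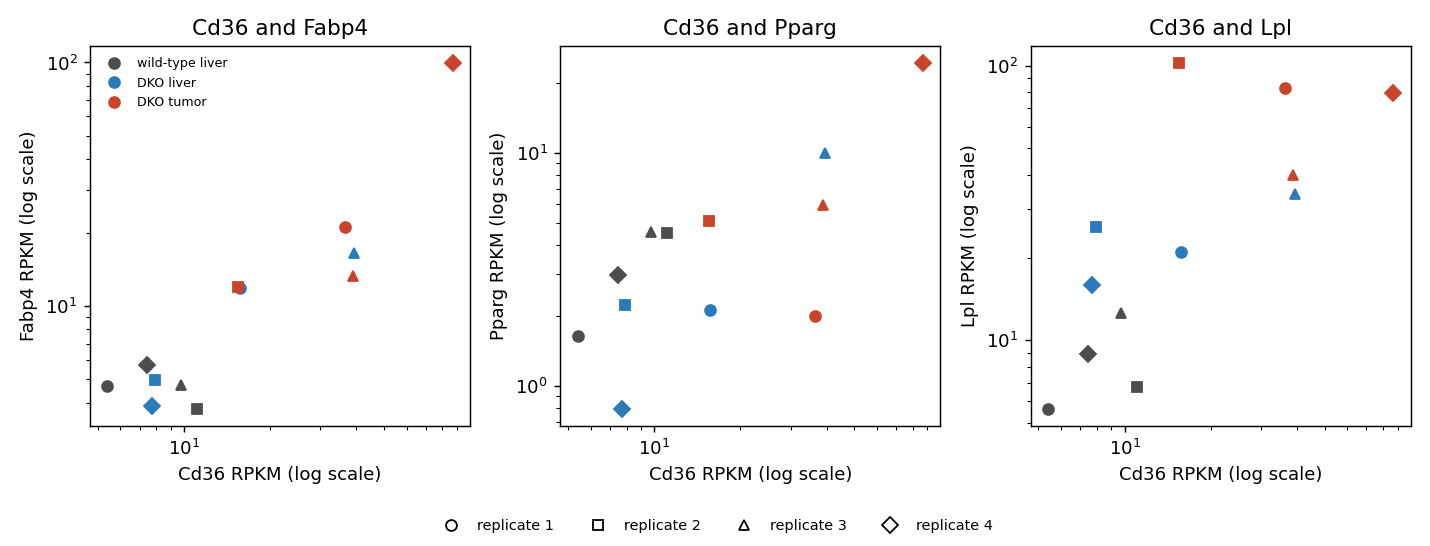
RPKM of Cd36 (horizontal, log scale) against Fabp4, Pparg and Lpl (vertical, log scale), 1 point a library, with the group as the color and the replicate number as the symbol. DKO tumor 4 is at the top right for Fabp4 and Pparg, whereas for Lpl the tumors and DKO livers lie above the wild-type livers at like levels of Cd36.

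Other genes tracked some of these profiles more closely. Among the tested genes with the highest Pearson r with Lpl over the 12 libraries were Tnfsf12-tnfsf13 (0.954) and Pygb (0.952). Pygb, the brain form of glycogen phosphorylase, was at 2.61 ± 0.96 RPKM in wild-type livers, 7.37 ± 4.23 in the livers of DKO mice and 20.6 ± 5.63 in tumors (SD, n = 4 each). Uap1l1 was the most like both Cd36 (r = 0.959) and Fabp4 (r = 0.943), and Hexa, a subunit of lysosomal hexosaminidase, was among the 3 most like for both (0.948 and 0.941). Hexa stood at 11.4 ± 1.69 RPKM in wild-type livers, 20.2 ± 7.33 in the livers of DKO mice and 40.8 ± 19.0 in tumors. Cd200 was second for Cd36 (0.952) and Mcam, an endothelial and pericyte adhesion molecule, second for Fabp4 (0.943). For Pparg the genes were Anxa7 (0.933), Ugdh (0.929) and Eif3c (0.923), and for Cidec they were Golph3l (0.976), Rere (0.946) and Nol12 (0.931). Cidec had 10 to 48 reads per library. All these genes were picked as the highest r among 11352 tested genes over 12 libraries. Picking alone makes such r values high, so they are descriptions and were not tested.

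The rest of the route from blood lipid to droplet was read from 8 lists of 114 genes that exclude the 7, of which 102 were tested. Against wild-type livers, 1 of them rose and 1 fell in the tumors (limma, adjusted p under 0.05), which is 1.96%, beside 1.9% of all genes. Their median difference was −0.15, against −0.02 for all genes, and 31 (30.4%) had an unadjusted p under 0.05, against 19.2% of all genes. In DKO livers 0 passed, 14 (13.7%) had an unadjusted p under 0.05 beside 12.4% of all genes, voom on the recovered reads called 0, and the median was 0.02 beside 0.08 for all genes. In tumors against DKO livers 0 passed with either tool, 22 (21.6%) had an unadjusted p under 0.05 beside 16.1% of all genes, and the median was −0.25 beside −0.09. The list genes went both ways, and 43 of the 102 were higher in tumors than in wild-type livers. Single list genes differed by as much as Cd36 and Fabp4, among them Pnpla3 at 2.19 and Pck1 at −2.20. With quantile normalization the tumor differences of several highly expressed list genes moved by over 1.5 times: Apoc1 to −0.35, Fabp1 to −0.47, Slc27a2 to −0.41, Dgat2 to −0.24, Cideb to −0.07, Rxra to −0.12, Agpat2 to 0.58, Adfp (now Plin2) to 0.68 and Apob to 0.53.

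Partners of lipoprotein lipase did not pass the test. Of 14 tested, 0 passed in tumors against wild-type livers with limma, 5 had an unadjusted p under 0.05, and the median difference was −0.15. Apoc1, which encodes an apolipoprotein that inhibits the lipase, was at 3513 ± 911 RPKM in wild-type livers and 1929 ± 313 in tumors without overlap (−0.84, adjusted p = 0.219). Apoc3, another inhibitor, was at 1992 ± 531 and 1821 ± 565 (−0.15, adjusted p = 0.852). In tumors 6 of the 14 were higher than in wild-type livers. Further genes were picked after their values were seen. Gpihbp1, the capillary anchor of the lipase, was at 7.23, 7.05, 6.02 and 4.85 RPKM in wild-type livers, 13.4, 5.5, 20.3 and 4.33 in livers of DKO mice and 5.58, 7.41, 13.3 and 25.6 in tumors (0.74 for tumors, adjusted p = 0.43, and 0.36 without DKO tumor 4). Its high libraries, DKO livers 1 and 3 and tumors 3 and 4, were also high for Cd36, but tumor 1 was high for Cd36 alone. Angptl4, a secreted inhibitor of the lipase, was at 33.9 ± 20.9 and 14.1 ± 4.62 (−1.08, adjusted p = 0.169). Wild-type livers 1 and 2 had 63.2 and 34.5 RPKM of Angptl4 and wild-type livers 3 and 4 had 19.4 and 18.5, and its difference was −0.45 with the tag as a covariate. Lipc, encoding hepatic lipase, was at 134 ± 25.5 and 66.4 ± 24.1 without overlap (−1.08, adjusted p = 0.0774, 0.0459 to 0.499 over the alternatives). Angptl8, listed as EG624219, was higher, at 14.1 ± 10.4 RPKM in wild-type livers and 31.1 ± 8.49 in tumors (1.27, limma adjusted p = 0.156). In livers of DKO mice Angptl8 was at 43.2 ± 24.8 (1.60, adjusted p = 0.29). Apoa5 was at 575 ± 58.4 in wild-type livers and 237 ± 210.1 in tumors without overlap (−1.80, adjusted p = 0.123). It passed without DKO tumor 3.

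Among 17 other genes of fatty acid uptake, binding and activation, 0 passed in tumors, 7 had an unadjusted p under 0.05, and the median was −0.09. Fabp1, the binding protein of liver, was at 2591 ± 1067 RPKM in wild-type livers, 1269 ± 399 in the livers of DKO mice and 1372 ± 356 in tumors (−0.85 for tumors, limma adjusted p = 0.189). Slc27a2, a fatty acid transporter of liver, was at 586 ± 86.1 in wild-type livers and 347 ± 51.6 in tumors without overlap (−0.75, adjusted p = 0.145). Fabp1 thus exceeded Fabp4 many times over in each group, and its mean was lower in the DKO groups. In tumors 7 of the 17 were higher than in wild-type livers. Further genes were picked after their values were seen. Cav1 (1.37, limma adjusted p = 0.0952), Acsl3 (0.94, 0.0693) and Acsl5 (0.78, 0.153) were higher in tumors without overlap. Acsl4 was higher with overlap (1.23, adjusted p = 0.135), and Slc27a5 was lower without overlap (−0.72, adjusted p = 0.121). With median-of-ratios scaling Cav1 and Acsl3 passed.

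In glycerolipid synthesis 0 of 17 tested genes passed in tumors, 5 had an unadjusted p under 0.05, and the median was 0.01. Dgat2, which makes the final step to triglyceride, was at 239.7 ± 51.9 RPKM in wild-type livers and 159 ± 61.1 in tumors (−0.64, limma adjusted p = 0.218). Agpat2, an acyltransferase earlier in the route, was at 158 ± 43.1 and 183 ± 38.3 (0.23, adjusted p = 0.688). Mogat1, at 0.144 RPKM in wild-type livers, was thus a minor member of this route by RNA in these libraries.

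Of 12 tested genes of the lipid droplet 0 passed in tumors, 3 had an unadjusted p under 0.05, and the median was −0.30. Cideb, the CIDE gene of normal liver, was at 262 ± 45.0 RPKM in wild-type livers, 243 ± 54.6 in the livers of DKO mice and 195 ± 30.2 in tumors (−0.42 for tumors, limma adjusted p = 0.334), far above Cidec and Cidea in each group. The droplet coat gene listed as Adfp was at 171 ± 68.4 in wild-type livers and 205 ± 55.7 in tumors (0.30, adjusted p = 0.662). Hilpda, listed as 2310016C08Rik, was picked after its values were seen. It was at 2.62 ± 0.514 RPKM in wild-type livers and 5.14 ± 1.04 in tumors without overlap (0.76, limma adjusted p = 0.0632). It passed with median-of-ratios scaling and not with quantile normalization. In tumors 3 of the 12 were higher than in wild-type livers.

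Of 9 genes of lipolysis, Abhd5 rose in tumors. Abhd5 encodes the coactivator of adipose triglyceride lipase. It was at 9.31, 10.8, 13.3 and 12.7 RPKM in wild-type livers, 9.22, 15.5, 17.9 and 21.3 in livers of DKO mice and 26.6, 33.5, 20.3 and 26.4 in tumors. Tumors lay above wild-type livers without overlap (1.13, SE 0.23, limma adjusted p = 0.0275, 0.0147 to 0.283 over the alternatives). The call was kept in 7 of 12 fits that each left out 1 library. It was lost without wild-type liver 1, 2 or 4 (adjusted p = 0.11, 0.0676 and 0.0963) and without DKO tumor 1 or 2 (0.0661 and 0.0962), and with the tag as a covariate the adjusted p was 0.283. Pnpla3, the droplet lipase linked to fatty liver, was picked after its values were seen. It was at 0.872 ± 0.551, 5.07 ± 5.23 and 7.67 ± 3.06 RPKM in the 3 groups, with no overlap between wild-type livers and tumors (2.19 for tumors, adjusted p = 0.063, which passed in 6 of 24 alternatives, 0.00416 to 0.356).

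Export of triglyceride in very low density lipoprotein was covered by 5 tested genes, of which 0 passed in tumors with limma and 0 had an unadjusted p under 0.05, with a median of 0.16. Apob, its structural protein, was at 231 ± 59.3 RPKM in wild-type livers and 249 ± 38.1 in tumors (0.14, adjusted p = 0.824).

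**Figure D4:**
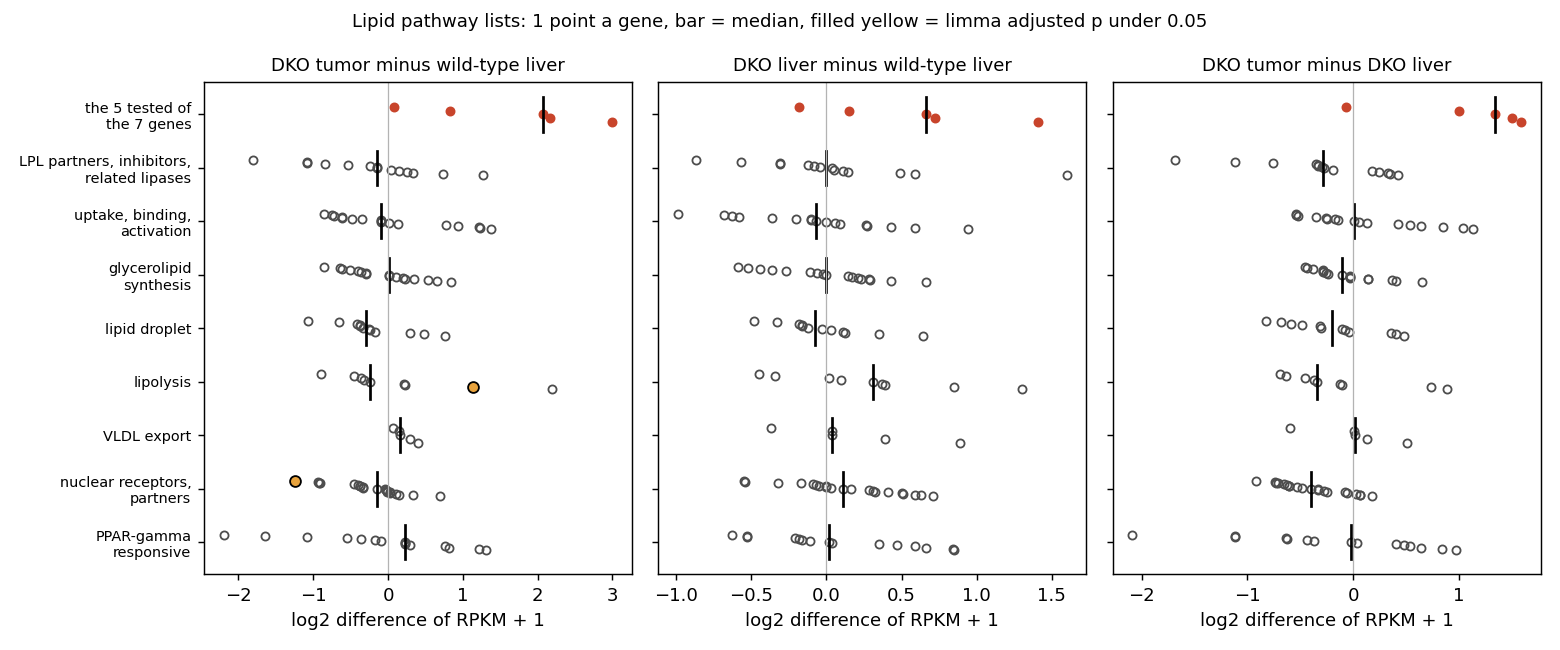
Difference on the log2(RPKM + 1) scale (horizontal, own range per panel) of the 5 tested genes of the set (red) and of each tested gene of the 8 pathway lists (circles) in the 3 comparisons, with a bar at the median and yellow for limma adjusted p under 0.05, a fill used for list genes alone. Abhd5 and Ppargc1b are the 2 yellow points, both in tumors against wild-type livers, and Lpl is the red point at 3.0.

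Among 21 tested nuclear receptors, partners and coregulators of PPAR-gamma, Ppargc1b fell in tumors. Ppargc1b encodes a coactivator of nuclear receptors known for raising oxidative and lipid genes in liver. Wild-type livers had 4.56, 3.12, 1.91 and 4.63 RPKM of it, with 1.99, 2.48, 1.42 and 2.33 in DKO livers and 0.737, 0.775, 1.22 and 0.728 in tumors. Every tumor was below every wild-type liver (−1.25, SE 0.21, limma adjusted p = 0.0178). Over the alternatives the difference ran from −1.99 (voom on recovered reads) to −1.13 and the adjusted p from 0.00527 to 0.231. The call was kept in 8 of 12 fits that left out 1 library. It was lost without wild-type liver 1 or 4 (adjusted p = 0.0774 and 0.0732) and without DKO tumor 1 or 2 (0.0589 and 0.0626), and with the tag as a covariate the adjusted p was 0.187. Rxra, the DNA partner of PPAR-gamma, was at 87 ± 5.79 RPKM in wild-type livers and 69.4 ± 21.2 in tumors (−0.37, adjusted p = 0.34). Cebpa, which acts with PPAR-gamma in fat cells and is a hepatocyte factor, was at 113 ± 24.8 and 59.7 ± 12.8 without overlap (−0.91, adjusted p = 0.064, which passed in 3 of 24 alternatives, 0.0398 to 0.405).

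A last list held 15 tested genes known to respond to PPAR-gamma in fat or liver, some of them also on other lists. In tumors 0 passed with limma, 5 had an unadjusted p under 0.05, and the median was 0.22. Pck1, a gluconeogenic gene, was at 521 ± 222 RPKM in wild-type livers and 192 ± 228 in tumors (−2.20, adjusted p = 0.166). Without DKO tumor 3 it was −2.97 (adjusted p = 0.0365, the lowest over the alternatives, which reached 0.644). The fat-cell genes of this list, Adipoq, Cfd and the gene listed as Plin, were among those that did not reach the filter.

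Markers of other cell types that use these genes were read in the same libraries. The 8 adipocyte markers summed to 0.47 to 1.19 RPKM in wild-type livers, 0.464 to 1.07 in the livers of DKO mice and 0.467 to 1.13 in tumors, and 1 of the 8, Adrb3, passed the filter. Adipoq, Lep, Cfd and Plin were at 0 in 3 of 4 tumors and Retn and Ucp1 in 4 of 4, and DKO tumor 4, where Fabp4 reached 99.3 RPKM, had an adipocyte sum of 0.607. Slc36a2 was at 0.0581 to 0.104 RPKM in tumors, at 0 in 4 of 4 DKO livers and at up to 0.14 in wild-type livers. Adrb3 was at 0.31 to 0.919 RPKM in tumors. The part of fat cells in the levels of Fabp4, Cd36 and Pparg was not tested.

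The 12 macrophage markers, 0 of them called by limma in any comparison, summed to 129.6 to 374 RPKM in wild-type livers, 256 to 677 in the livers of DKO mice and 98.5 to 327 in tumors. DKO tumor 4 had the lowest macrophage sum of all libraries, at 98.5 RPKM. The 6 markers of lipid-associated macrophages summed to 44.7 to 78.3, 46.4 to 212 and 70 to 160.4 RPKM in the same order. DKO liver 3 and DKO tumor 3 were the highest for this sum, at 212 and 160.4 RPKM. Spp1 alone reached 154 RPKM in the DKO livers and 103 in tumors. In tumors 6 of these 6 markers were above their wild-type mean on the log2 scale, against 2 of the 12 macrophage markers. Of the 6, 0 were called by limma and 3 had an unadjusted p under 0.05. Their median difference was 0.57, beside −0.02 for all genes, and that of the 12 was −0.62. The 13 endothelial markers summed to 65.7 to 102, 99.6 to 195 and 59.8 to 148 RPKM, and single markers went different ways. In tumors 10 of the 13 were above their wild-type mean on the log2 scale, with 0 called by limma and 4 at an unadjusted p under 0.05. In DKO livers 13 of the 13 endothelial, 12 of the 12 macrophage and 5 of the 6 lipid-associated macrophage markers were above their wild-type mean. Their median differences were 0.54, 0.69 and 0.22, beside 0.08 for all genes, and 0 were called by limma. Of 6 stellate markers, 6 were higher in DKO livers (median 0.72, 0 called, 4 at an unadjusted p under 0.05) and 4 in tumors (median 0.18). Picked after their values were seen, Emcn was at 1.24 ± 0.35 RPKM in wild-type livers and 5.15 ± 3.69 in tumors (1.31, limma adjusted p = 0.0574), and Cd34 at 1.7 ± 0.788 and 6.72 ± 5.27 (1.36, adjusted p = 0.0687), both without overlap. Clec4g, a marker of sinusoidal endothelium, was at 30.5 ± 5.14 and 17 ± 13.5 RPKM (−1.29, adjusted p = 0.251). DKO livers 1 and 3, which were high for Cd36 and Fabp4, had endothelial sums of 159 and 195 RPKM and macrophage sums of 677 and 462, the 2 highest of all libraries for both. DKO livers 2 and 4 had endothelial sums of 102 and 99.6 RPKM and macrophage sums of 256 and 330.1. Tumors 1 to 4 had endothelial sums of 59.8, 75.1, 148 and 113 RPKM and macrophage sums of 130.3, 136, 327 and 98.5. In the same tumors Lpl was at 82.8, 102, 40.1 and 79.7 RPKM and Cd36 at 36.5, 15.5, 38.9 and 86.9. The part of these cells in the levels of Lpl, Cd36, Fabp4, Cidec and Pparg was not tested.

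**Figure D5:**
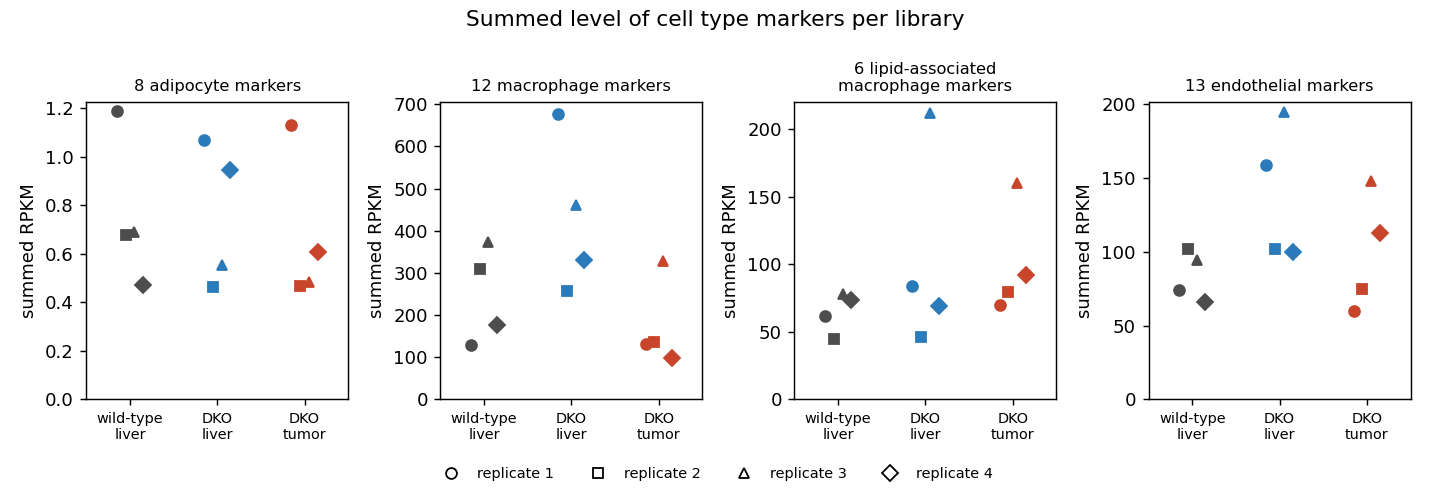
Summed RPKM (linear axis from 0, own range per panel) of adipocyte, macrophage, lipid-associated macrophage and endothelial markers in each library, with the replicate number as the symbol. Adipocyte markers stay at or under 1.19 RPKM in every library, and DKO livers 1 and 3 have the highest macrophage and endothelial sums.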

How the data were processed

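RNA was measured in 12 mouse libraries, 4 per group, grouped by the labels. Per the labels' protocols, libraries were made with a SOLiD kit from RNA purified for poly(A) in 2 steps. The deposited values are RPKM for 21247 RefSeq transcripts on build mm9. The submitters' processing notes name BWA and mm9; versions, counting tool and filters are not given in the sources used here. At least 99.99% of values gave whole reads within a tolerance of 0.05 of a read, which gave depth and reads. A limit for a count of 0 is 3 reads. Reads carry no molecular identifiers, so depth covers counting error only. Whether deposited coordinates count from 0 or 1 is not stated. Nothing says more of how samples were taken than the shared animal codes, so p-values measure the spread between these samples.

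The longest transcript was kept per symbol. The 11352 genes that reached 0.5 RPKM in 4 or more libraries entered limma 3.58.1 in R 4.3.3 on log2(RPKM + 1), with a mean per group over all 12 libraries, an intensity trend and robust shrinkage. Tests were two-sided with Benjamini-Hochberg adjustment over all genes tested at 0.05. The offset of 1 understates differences of low genes. The fit was checked on simulated data.

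The 7 genes, the 8 pathway lists and the 7 marker lists were chosen with earlier results of these data known. The 15 lists held 183 entries, of which 181 matched (Pcsk5 and Pcsk6 did not). The pathway lists cover partners of lipoprotein lipase, uptake, glycerolipid synthesis, the lipid droplet, lipolysis, lipoprotein export, nuclear receptor partners and PPAR-gamma-responsive genes. The marker lists cover adipocytes, macrophages, lipid-associated macrophages, endothelium, stellate cells, muscle and hepatocytes. The 6 stellate markers summed to 19.1 to 90.6 RPKM over the libraries, and the 6 muscle markers to 0.15 to 1.95 RPKM. Named genes are the 7, the called genes of each pathway list (up to 4), where fewer than 2 were called also its highest by mean (up to 2), and the 3 tested genes with the highest Pearson r to each of the 5 tested; others are named as picked after their values were seen. One gene that this rule names is not reported here.

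DKO tumor and DKO liver of the same number share an animal code, and their deviations from group means correlated at 0.117, 0.346, 0.367 and 0.003. With the animal as a block over these 8 libraries, 71 genes passed in place of 1, and none was among the 7 or the pathway lists. Alternatives covered the offset (0.1), filters, scaling, shrinkage, voom on recovered reads, the libraries fitted, the transcript, the tag, blocks and each library left out. Tables were read with pandas 2.3.3 and numpy 2.4.6 and plots drawn with matplotlib 3.10.9 in Python 3.11.15. Promoter sequences are RefSeq's on GRCm38.p6, a build other than that of the deposited coordinates. Raw reads were not analysed here.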

Additional observations from a re-analysis of the deposited data

Results flagged for a closer look

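In groups of 4 libraries, 6 values stood far from the other 3 of their group, with most of the group's range lying between them and the nearest library (Dixon's criterion at 95%). A total of 27 groups was looked at. The criterion marks about 1 in 20 groups by chance only for normally distributed values. Raw RPKM and counts of a few reads need not be so distributed, so the flags are descriptions. Fabp4 in DKO tumor 4 was at 99.3 RPKM, against 12 to 21.1 in the other tumors. Pparg in DKO liver 3 was at 10 RPKM, against 0.796 to 2.21 in the other DKO livers. Cidec in DKO tumor 1 was at 0.405 RPKM, below the 1.27 to 1.34 of the other tumors. Cidea in DKO tumor 2 was at 1.42 RPKM on 21 reads, against 0.0538 to 0.0601 in the other tumors, which had 1 read each. Cidea in wild-type liver 3, at 0.0723 RPKM, is 1 read against 0 in the other wild-type livers and lies under the detection limit. Ppargc1b in DKO tumor 3 was at 1.22 RPKM, against 0.728 to 0.775 in the other tumors.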

How the results depend on the processing

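Of 355 differences of the 5 tested genes of the set recomputed under the alternatives, 354 stayed within the spread between libraries. The exception was Lpl in tumor against DKO liver, at 0.89 with the tag as a covariate. Leaving out 1 of 4 libraries cannot move a difference beyond the spread. Changes of filter, shrinkage, block or libraries compared leave the difference of a gene as it was. The count of 354 is therefore no measure of stability. Pparg in tumors counts as within the spread, though it went from 0.83 to 0.24 without DKO tumor 4. In tumors against wild-type livers the difference of Lpl ranged from 2.66 to 3.28 over the alternatives. Cidec, and Pparg in DKO liver, changed sign under a few settings. Of 504 values of named list genes, 472 kept direction and side of the threshold, 15 no longer passed, 11 came to pass and 6 reversed. Angptl8, Apoa5, Cav1, Acsl3, Acsl4, Acsl5, Slc27a5 and Hilpda were not among these genes. The reversed values, of genes not called, were Apoc3 at 0.19 and Ces3 at 0.06 with quantile normalization, Apob at −0.05 and Apoc3 at 0.01 without wild-type liver 1, Apoc3 at 0.02 without DKO tumor 4, and Sar1b at −0.10 without DKO tumor 2. With 1 library left out, Apob ranged from −0.05 to 0.25, Apoc3 from −0.31 to 0.02 and Sar1b from −0.10 to 0.16.

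Counts of changed genes moved more. In tumors against wild-type livers 216 genes passed, and 112 without a filter, 598 with median-of-ratios scaling, 493 with quantile normalization, 128 with a replicate block, 3 with the tag as a covariate and 25 among L03 libraries. Leaving out 1 library gave 16 (without wild-type liver 4) to 413 (without DKO tumor 3). The 2 pathway genes became 1, 11, 6, 2, 0 and 0 under the same settings in that order, 5 with only the 8 libraries compared, and 0 to 7 with 1 library left out. In DKO livers against wild-type livers 0 genes passed, and 1 with median-of-ratios scaling or only 8 libraries, and 0 to 2 with 1 library left out. In tumors against DKO livers 1 gene passed, and 19 with quantile normalization, 55 with only 8 libraries, 71 with the replicate block, 0 with the tag and 0 to 365 with 1 library left out, the most without DKO tumor 3. Pathway genes in that comparison numbered 0, and 0 to 4 with 1 library left out. The cause was not tested.

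With wild-type livers the replicate numbers are only numbers, and the correlation of same-numbered libraries was −0.127 to 0.227. Under that replicate block the adjusted p of Ppargc1b was 0.0539 and that of Abhd5 0.0487. Without a filter that of Abhd5 was 0.0537. Between DKO tumor and DKO liver the median of all genes was −0.092, and 0.018 after median-of-ratios scaling. Low read counts limit Mogat1, Cidea and Cidec, and 4 libraries per group with 1 or 2 high ones limit Cd36, Fabp4 and Pparg.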
